A study of Mus musculus with 4 samples.

Results

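NG2 and NG3 are 2 of the 18 nodose neuron types in a single-cell RNA atlas of the mouse vagal ganglia, which hold the sensory neurons of the vagus nerve. Their members were the cells that the deposited annotation assigns to the cluster NG2 or NG3: 59 of the 1825 cells in the series, of which 30 were NG2 and 29 were NG3. They were compared with the 1400 cells of the other 16 nodose types. Both types are described together because both are high in Nefh and Kcna2, and against each other because much else separates them.

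The ganglia, jugular and nodose together, came from mice of 5 weeks. The WT_unsorted group was wild type C57BL6 and gave 2 libraries from whole cell suspensions, called unsorted 1 and unsorted 2 here. The Vglut2Cre-Tomato_sorted group was a cross of Slc17a6tm2(cre)Lowl with the congenic B6 line of the reporter allele Gt(ROSA)26Sortm14(CAG-tdTomato)Hze and gave 2 libraries, sorted 1 and sorted 2. In that cross Cre is expressed from Slc17a6, the gene of the vesicular glutamate transporter VGLUT2, and the Tomato-bearing cells were taken by fluorescence-activated sorting. Sort, genotype and preparation therefore differ together between the groups and cannot be told apart. The labels do not say how many mice entered a library, so spread between libraries may be partly technical.

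Nodose neurons carry signals from the heart, lungs, airways and gut and arise from the epibranchial placodes, whereas jugular neurons arise from the neural crest. Large myelinated axons conduct fast and are rich in neurofilaments, the intermediate filaments that set axon calibre, and in the low-threshold potassium and sodium channels that cluster at and beside the node of Ranvier. In somatosensory ganglia such fibres serve touch and muscle sense, and PIEZO2, a mechanically gated cation channel, is the main transducer of light touch. In the vagus PIEZO2 takes part in sensing lung stretch and blood pressure.

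The libraries held 270, 930, 328 and 297 cells (unsorted 1, unsorted 2, sorted 1 and sorted 2), with medians of 33397 to 63805 unique molecular identifiers (UMIs, each marking 1 captured transcript) per cell. NG2 contributed 4, 16, 6 and 4 cells and NG3 contributed 4, 16, 6 and 3 cells, in that order. Each type made up 2.13% of the nodose cells in unsorted 1 (95% exact binomial interval 0.583 to 5.36), 2.21% in unsorted 2 (1.27 to 3.56) and 2.01% in sorted 1 (0.740 to 4.32). In sorted 2 the share was 1.62% for NG2 (0.443 to 4.09) and 1.21% for NG3 (0.251 to 3.51). All these intervals overlap, and they cover counting error only. No barcode of an NG2 or NG3 cell was shared between libraries.

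Median UMIs per cell were 38584 in NG2, 53472 in NG3 and 41053.5 in the other nodose cells. Within libraries the median of NG2 and NG3 cells together was higher in 3 of 4, by a mean of 0.18 on the log2 scale (SD 0.19, exact two-sided sign-flip permutation test p = 0.25, n = 4 libraries). That test cannot go below 0.12 with 4 libraries. After every cell was thinned to 10000 UMIs, which left out 2 NG2 cells and 16 other nodose cells, the median number of detected genes was 3716.5 in NG2, 3619 in NG3 and 3541.5 elsewhere. Mitochondrial transcripts took a median of 6.96% of UMIs in NG2, 5.19% in NG3 and 7.67% in the other nodose cells, but 17.8% in the 3 NG3 cells of sorted 2.

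Markers of nodose and jugular neurons were checked in both types. Hoxb5, a homeobox gene, averaged 3.11 UMIs per 10000 in NG2 and 3.63 in NG3, against 0.0486 to 0.151 over the 6 jugular types. Prdm12, a marker of neural crest derived sensory neurons, averaged 0.00216 and 0.00823, against 1.02 to 2.26 in the jugular types. Prrxl1, a homeobox gene of the same crest derived neurons, went the other way: NG2 (0.595 ± 0.293) and NG3 (0.158 ± 0.107) were the highest nodose types, below the jugular types at 1.18 to 3.52. After thinning to 10000 UMIs, 14 of 28 NG2 cells, 2 of 29 NG3 cells and 55 of 1384 other nodose cells had a Prrxl1 UMI, beside 0 of 20 endothelial cells. Another pair of nodose markers had lower mean levels: P2rx2 and Htr3a are described with the receptors.

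Levels throughout are UMIs per 10000 UMIs of the cell, averaged over the cells of a type in a library. A difference is the log2 of (level + 1) in one set minus that in the other, taken within a library and averaged over the 4 libraries, and its SD is over libraries. On this scale low genes show less change than they would as plain ratios. A gene met the size rule when the difference was at least 1 in size and had the same sign in every library. The types were drawn from these same transcripts, so these comparisons are descriptions without a test.

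Of the 9257 genes measured above 0.1 UMIs per 10000 in NG2 and NG3 cells together or in the other nodose cells, 52 met the rule as higher (0.562%) and 42 as lower (0.454%). The 5 marker genes were Nefh (neurofilament heavy chain), Kcna2 (the axonal potassium channel subunit Kv1.2), Kcnk1 (the 2-pore potassium channel TWIK1), Tmem233 (a small membrane protein of the dispanin family) and Piezo2. All 5 were higher in the 59 cells than elsewhere, with differences of 2.29, 1.69, 1.23, 2.41 and 1.3. Taken apart, the markers split: Nefh and Kcna2 met the rule in both types, Kcnk1 in NG2 only, and Tmem233 and Piezo2 in NG3 only. For NG3 other values went against the name large-fibre: Nefm, Nefl and S100b did not meet the rule, and every NG3 cell carried Scn10a, a gene typical of unmyelinated neurons, as given below. The types are therefore called NG2 and NG3 throughout. Both were set against the same other nodose cells, with the other type left out, so the 2 comparisons share their comparator.

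On the GRCm38 assembly with GENCODE M21 annotation, Nefh spans chr11:4938754-4948064 (minus strand), Kcna2 chr3:107101146-107115005 (plus), Kcnk1 chr8:125995170-126030685 (plus) and Tmem233 chr5:116038755-116083244 (minus). The RefSeq promoter table (GRCm38.p6, 300 bases around the start) lists Kcna2, Kcnk1 and Tmem233. The promoters of Kcna2, high in both types, and Tmem233, high in NG3 but not in NG2, are shown as the start sites of the 2 marker patterns. The Kcna2 window lies at chr3:107101317-107101616 on the plus strand and that of Tmem233 at chr5:116083218-116083517 on the minus strand. The Kcna2 window falls inside the GENCODE span given above and does not hold the start of that span. Capitals mark a GC box (GGGCGG on either strand), the one motif found.
Kcna2: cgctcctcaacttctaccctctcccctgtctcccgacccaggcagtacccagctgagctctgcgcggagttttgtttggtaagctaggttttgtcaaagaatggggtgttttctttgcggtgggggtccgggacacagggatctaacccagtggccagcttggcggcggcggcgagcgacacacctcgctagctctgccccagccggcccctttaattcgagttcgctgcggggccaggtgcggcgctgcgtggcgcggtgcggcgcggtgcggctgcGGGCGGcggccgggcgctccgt
Tmem233: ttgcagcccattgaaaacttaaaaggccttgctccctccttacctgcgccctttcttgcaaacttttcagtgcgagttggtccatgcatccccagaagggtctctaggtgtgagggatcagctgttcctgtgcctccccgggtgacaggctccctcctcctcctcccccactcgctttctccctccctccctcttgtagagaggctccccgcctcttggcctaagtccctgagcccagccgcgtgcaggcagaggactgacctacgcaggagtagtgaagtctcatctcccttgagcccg
The Kcna2 window holds 1 GC box and no TATA box (TATAAA on either strand), and the Tmem233 window holds neither. GC content is 66.7% and 59.0%, beside a median of 52.7% over 32851 promoters, of which 35.7% hold a GC box and 13.6% a TATA box.

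Of the 3 neurofilament chain genes, Nefh was higher in both types and Nefm and Nefl in NG2 only. Nefh stood at 30.3, 26.2, 24.4 and 20.8 UMIs per 10000 in NG2 (unsorted 1, unsorted 2, sorted 1 and sorted 2, the order used for every list of 4 values below). In NG3 it stood at 12.6, 15.1, 7.04 and 7.81, and in the other nodose cells at 3.21, 3.31, 2.25 and 2.88. The 3 sets did not overlap. Nefh was 2.75 ± 0.22 (SD, n = 4 libraries) above the other nodose cells in NG2 and 1.52 ± 0.33 in NG3.

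The other filament genes separated the types. Nefm, the medium chain, stood at 32.6, 38.9, 26.4 and 31.3 in NG2 and at 8.90, 11.7, 6.92 and 10.6 in NG3, where it lay close to the other nodose cells (difference 0.40 ± 0.18). Nefl, the light chain, likewise met the rule in NG2 (1.44 ± 0.23) and not in NG3 (0.13 ± 0.11). Prph, the peripherin gene typical of small-diameter neurons, was lower in NG2 by the rule (-1.06 ± 0.46), with 11.1 ± 2.81 UMIs per 10000 against 24.1 ± 5.06. Thy1, a surface glycoprotein of neurons, was higher in both, by 1.39 ± 0.14 in NG2 and 2.12 ± 0.24 in NG3.

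Of the 20 cytoskeletal genes listed and measured, 7 met the rule as higher in NG2 and 1 as lower, among 9381 genes of which 0.927% were higher and 0.842% lower. In NG3 2 of the 20 were higher and 0 lower, among 9214 genes with 0.760% higher and 0.640% lower. The list's median difference was 0.27 in NG2 and 0.01 in NG3, beside 0.01 and -0.01 over all genes.

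**Figure D1:**
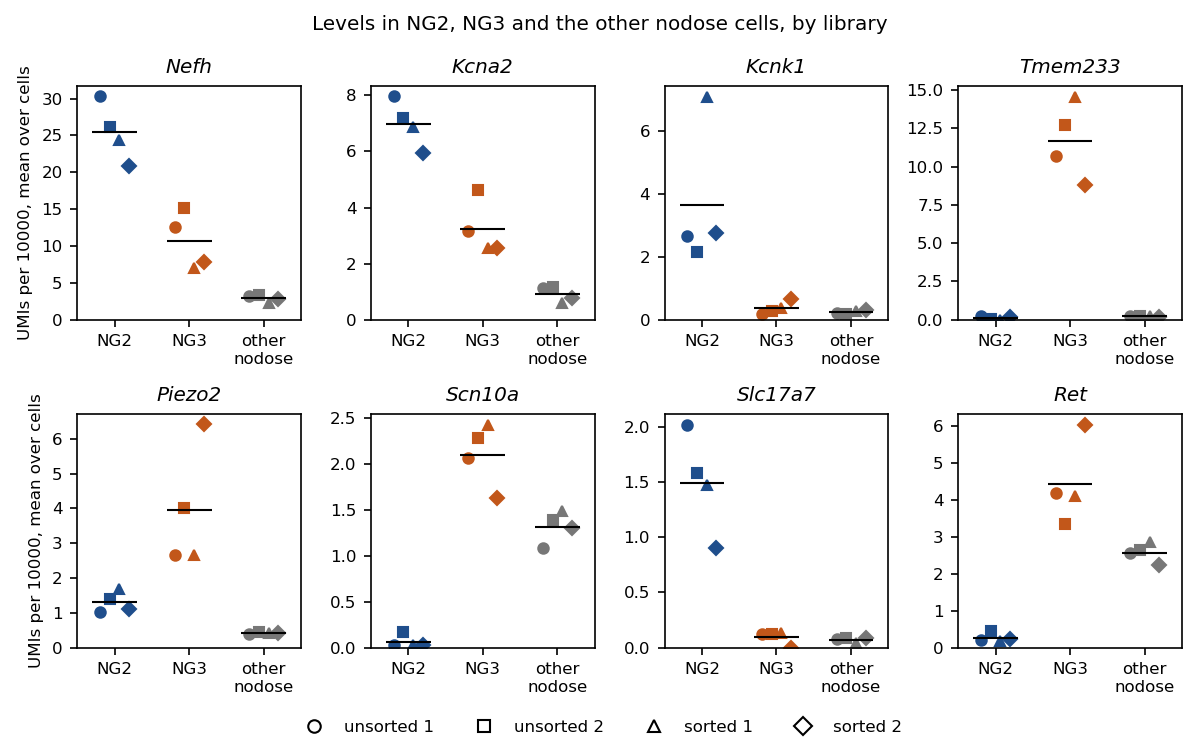
Mean level in UMIs per 10000 (vertical axes, linear from 0) of 8 genes in NG2, NG3 and the other nodose cells; each symbol is 1 library and the black bar is the mean of 4. Nefh and Kcna2 are raised in both types, Kcnk1 and Slc17a7 in NG2 alone, Tmem233 and Piezo2 chiefly in NG3, and Scn10a and Ret are near 0 or low in NG2 only.

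Kcna2 and Kcnab2 were the axonal potassium channel genes that were higher in both types. Kcna2 stood at 7.96, 7.18, 6.88 and 5.94 in NG2, at 3.17, 4.62, 2.57 and 2.56 in NG3, and at 1.14, 1.18, 0.594 and 0.776 in the other nodose cells, again without overlap. Its difference from the other nodose cells was 2.06 ± 0.17 in NG2 and 1.12 ± 0.18 in NG3. Kcnab2, an auxiliary subunit of these channels, was higher by 1.35 ± 0.27 and 1.53 ± 0.16. Kcna1 (Kv1.1) met the rule in NG3 (1.31 ± 0.05) and fell short in NG2 (0.97 ± 0.55), where unsorted 1 stood at 0.384 and the other libraries at 1.29 to 1.89.

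Kcnc1 and Kcns1 met the rule in NG2 and not in NG3, and of the 2 only Kcns1 met it between the types. Kcnc1 (Kv3.1, a channel of fast-firing neurons) was 1.47 ± 0.41 above the other nodose cells in NG2 and 0.48 ± 0.25 above them in NG3, and Kcns1, a silent subunit that modifies other channels, was 1.47 ± 0.34 above them in NG2. Kcns1 stood at 2.06, 1.44, 3.47 and 1.86 in NG2 and at 0.0544, 0.13, 0.102 and 0.2 in NG3. Of the 45 voltage-gated potassium channel genes listed, 26 could be compared in NG2, where 4 were higher and 1, Kcnq3, was lower. In NG3 28 could be compared and 3 were higher. Over all genes, 0.927% were higher and 0.842% lower in NG2, and 0.760% were higher in NG3.

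Kcnk1 was the marker that set NG2 most apart from every other nodose type. It stood at 2.65, 2.16, 7.10 and 2.75 in NG2, against 0.173, 0.276, 0.370 and 0.657 in NG3 and 0.207, 0.172, 0.264 and 0.317 elsewhere. Sorted 1 was the high library. The NG2 mean was 3.66 ± 2.30, and the next types in order were NG1 at 0.914 ± 0.496 and NG11 at 0.677 ± 0.12. Kcnk3 (TASK1), a leak channel, was low in both types, by 1.2 and 1.31 on the log2 scale below the other nodose cells.

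Among 13 voltage-gated sodium channel genes, NG2 and NG3 carried different sets. Scn8a (Nav1.6, the channel of the mature node) met the rule in NG2 at 1.59 ± 0.10 and fell just short in NG3 at 0.98 ± 0.32. Scn1a and the auxiliary subunit Scn4b were also higher in NG2, by 1.24 ± 0.08 and 1.34 ± 0.19. In all, 4 of 13 were higher and 1 was lower in NG2, and 1 of 13, Scn7a (1.09 ± 0.40), was higher in NG3. All genes gave 0.927% higher and 0.842% lower in NG2, and 0.760% higher in NG3.

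The gene that was lower in NG2 was Scn10a, which encodes Nav1.8, a tetrodotoxin-resistant channel typical of unmyelinated nociceptors. It stood at 0.0324, 0.167, 0.0310 and 0.0260 in NG2 and at 2.06, 2.29, 2.43 and 1.64 in NG3, with the other nodose cells between at 1.09, 1.39, 1.49 and 1.31. After thinning to 10000 UMIs, 1 of 28 NG2 cells and 25 of 29 NG3 cells had an Scn10a UMI, beside 1 of 20 endothelial cells, which should lack it. Without thinning these were 5 of 30, 29 of 29 and 1 of 51, at median depths of 38584, 53472 and 9677 UMIs. The thinned share in NG2 was no higher than the endothelial one, with 1 cell holding a UMI on each side. Without thinning the NG2 share was higher, at 16.7% against 1.96%, between sets of unlike depth.

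Scn9a (Nav1.7) and Scn11a (Nav1.9) were on the same side. NG2 lay below NG3 by 1.54 ± 0.16 for Scn10a, 1.34 ± 0.25 for Scn9a and 1.06 ± 0.25 for Scn11a, while Scn1a and Scn4b lay above by 1.04 ± 0.17 and 1.1 ± 0.13. The 5 genes that met the rule between the types were thus 2 higher and 3 lower in NG2 of 13 compared. Over all 9303 genes compared between the types, 1.19% met it as higher in NG2 and 0.924% as lower.

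Of the genes listed for the axon initial segment, node and juxtaparanode, 2 of 22 compared were higher in NG2 and 2 of 20 in NG3. Cntn1, an adhesion molecule of the paranode, was among them in both, by 1.49 ± 0.11 in NG2 and 1.60 ± 0.27 in NG3. Lgi3 (1.36 ± 0.39) was the second gene in NG2 and Adam11 (1.64 ± 0.23) in NG3, both genes of synaptic and axonal channel complexes. Genes higher by the rule made up 0.927% of all those compared in NG2 and 0.760% in NG3.

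Among mechanically gated channels Piezo2 (chr18:63010213-63387183, minus strand) was higher in NG3. It stood at 2.67, 4.01, 2.67 and 6.42 in NG3, at 1.01, 1.39, 1.70 and 1.12 in NG2 and at 0.397, 0.434, 0.409 and 0.419 elsewhere. The 3 sets did not overlap, and the NG3 difference of 1.74 ± 0.47 met the rule while the NG2 difference of 0.69 ± 0.18 did not. In the order of the nodose types NG3 (3.94 ± 1.77) was followed by NG1 (3.21 ± 1.77), NG8 (1.56 ± 0.316), NG9 (1.49 ± 0.13) and NG2 (1.3 ± 0.304). NG3 and NG1 overlapped library by library, as did NG8, NG9 and NG2. Tmem63b, an osmosensitive channel gene, was higher in NG2 (1.06 ± 0.30), and Tmc3, of the family of hair-cell channel genes, was lower in NG3 (-1.42 ± 0.55).

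Tmem233 was far higher in NG3 than in any other nodose type. The NG3 levels were 10.7, 12.7, 14.5 and 8.79, against 0.225, 0.0393, 0 and 0.183 in NG2 and 0.188 to 0.278 in the other nodose cells. All 29 NG3 cells had a Tmem233 UMI after thinning, beside 3 of 28 NG2 cells and 145 of 1384 other nodose cells. The second nodose type was NG18 at 2.83 ± 1.12, and the jugular types JG2 and JG3 stood higher still, at 17.3 ± 1.76 and 17.8 ± 2.66. Over the whole vagal complex the gene was thus shared with jugular neurons.

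Its relative Trarg1, listed in the table under its earlier symbol Tusc5 (chr11:76679808-76698664, plus strand), was shared with other types. It stood at 4.75, 6.18, 11.3 and 2.11 in NG3 and at 0.294, 0.199, 0 and 0.162 in NG2, a difference of -2.44 ± 0.92 between them. NG3 did not meet the rule against the other nodose cells (0.98 ± 0.84), and NG2 was lower than them by -1.46 ± 0.11. Within single cells, Tmem233, Piezo2 and Scn10a were all detected in 28 of 29 NG3 cells (96.6%, exact interval 82.2 to 99.9), 2 of 30 NG2 cells and 38 of 1400 other nodose cells. Nefh, Kcna2 and Kcnk1 were all detected in 30 of 30 NG2 cells, 24 of 29 NG3 cells and 523 of 1400 other nodose cells, without thinning.

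**Figure D2:**
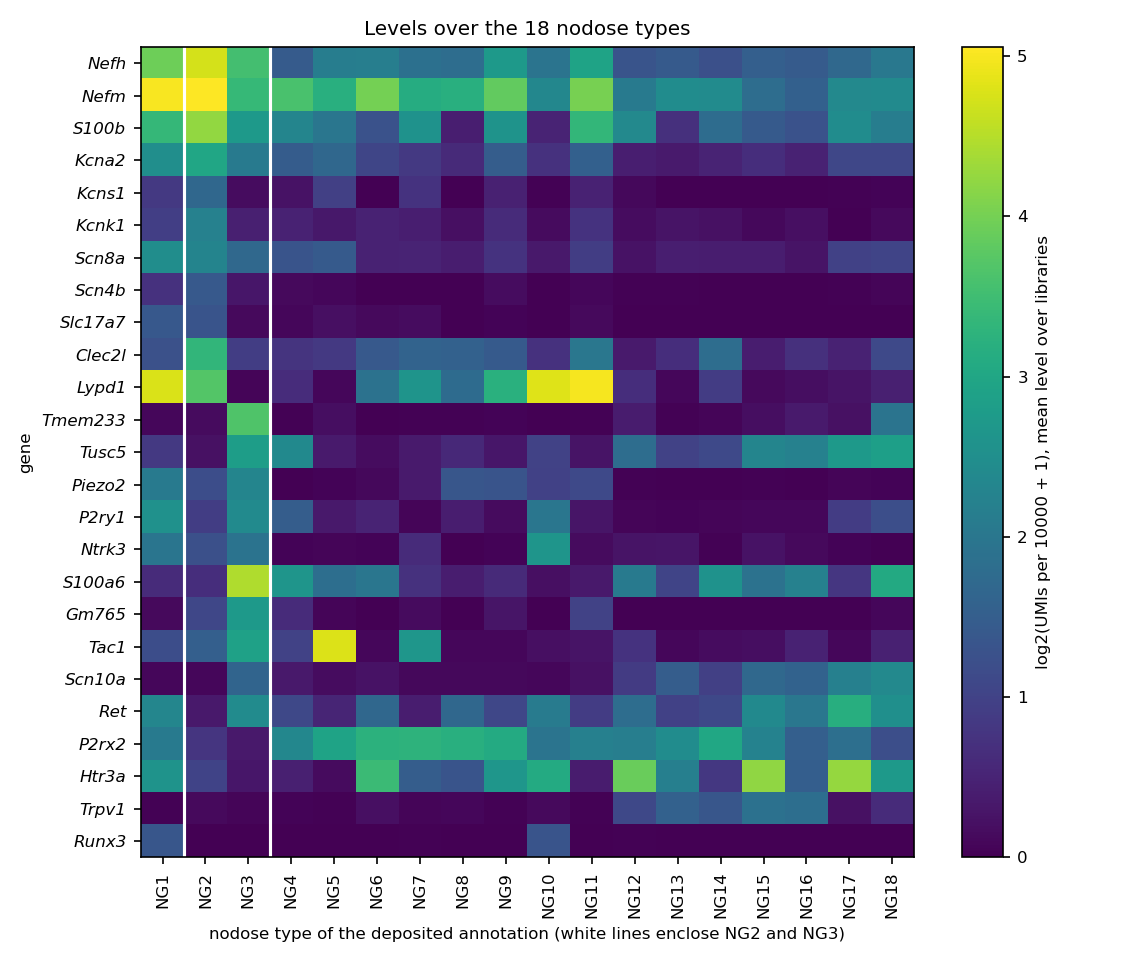
Colour gives log2(UMIs per 10000 + 1) of the mean level over libraries for 25 genes (rows) in the 18 nodose types (columns). The neurofilament and channel genes at the top are shared by NG1 and NG2 and are weaker in NG3, whereas Tmem233, S100a6 and Gm765 peak in NG3 and P2rx2 is lowest in NG2 and NG3.

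Over the 18 types NG1 was the neighbour of both for the axonal genes. The order for Nefh was NG2 (25.4), NG1 (14.4 ± 5.14) and NG3 (10.6), and NG1 overlapped NG3 but not NG2. Kcna2 ran in the same order, with NG1 at 4.68 ± 0.369. NG1 lay below every NG2 library for Kcna2 and overlapped NG3 only through unsorted 2. Across 8799 genes the profile of NG2 was most like NG1 (Pearson's r = 0.946), NG11 (0.938) and NG9 (0.929), and that of NG3 most like NG18 (0.953), NG1 (0.934) and NG4 (0.927). The r between NG2 and NG3 was 0.893. These correlations are across genes, which are not independent, between types drawn from the same 4 libraries.

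The genes that followed those markers in NG2 were S100b, a calcium-binding protein used as a marker of large sensory neurons, and Clec2l, a lectin-like membrane protein. S100b stood at 22.4, 20.8, 13.5 and 15.0 in NG2, 3.46, 7.70, 5.39 and 5.94 in NG3 and 2.76 to 3.94 elsewhere. Clec2l stood at 8.74, 8.89, 9.68 and 8.61 in NG2, 1.24, 1.77, 0.352 and 0.230 in NG3 and 0.826 to 2.14 elsewhere. NG2 was the highest nodose type for both, followed by NG1 at 9.26 for S100b and by NG11 at 3.03 for Clec2l. Satellite glia transcripts were high in 19 of 30 NG2 cells and 3 of 29 NG3 cells, as given below. Their part in the S100b level was not tested.

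In NG3 the leading genes after Tmem233 were S100a6, another calcium-binding protein, and Gm765. S100a6 stood at 18.5, 22.2, 26.3 and 16.5 in NG3 and at 0.814, 0.573, 0.645 and 0.277 in NG2, below the other nodose cells at 2.14 to 2.86. The difference between the types, -3.78 ± 0.27, was the largest in size of all genes compared. Gm765 stood at 5.38, 6.45, 7.35 and 2.94 in NG3, 1.47, 1.69, 0.393 and 0.882 in NG2 and 0.0926 to 0.160 elsewhere. Both types thus lay above the rest for Gm765, although NG2 fell short of the rule (0.87 ± 0.43).

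**Figure D3:**
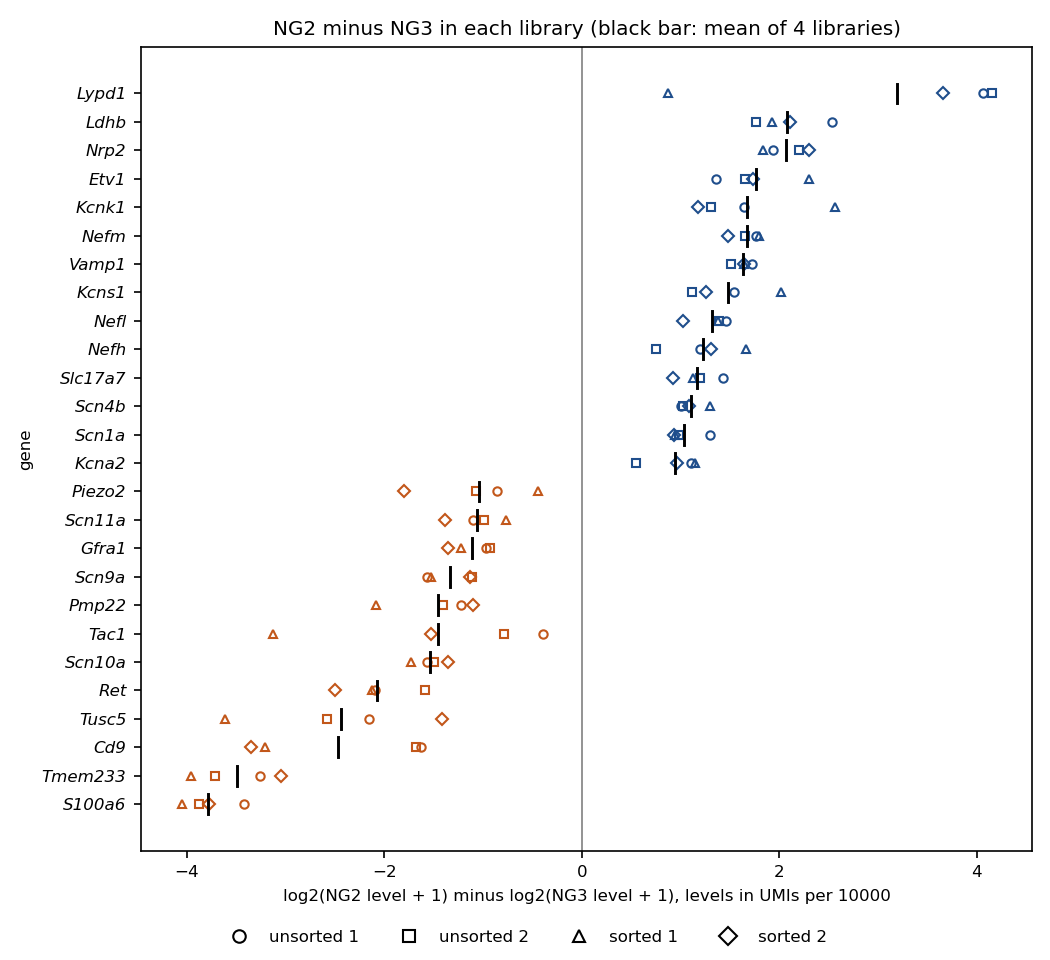
Log2 difference of level + 1 between NG2 and NG3 (horizontal axis) for 26 genes, with a symbol for each library and a black bar for the mean of 4. Each gene keeps 1 sign in all 4 libraries; Kcna2 is the gene shown that falls short of 1, and Lypd1 in sorted 1 lies far from its other libraries.

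Receptors that mark most nodose neurons had lower mean levels in both types. P2rx2, an ATP-gated channel, stood at 0.742, 0.668, 0.302 and 1.17 in NG2 and at 0.196, 0.490, 0.193 and 0.172 in NG3, against 4.34, 3.52, 6.08 and 5.69 elsewhere. These were the 2 lowest nodose types for P2rx2. Htr3a, the serotonin-gated channel, was lower by 1.77 ± 0.55 in NG2 and 2.42 ± 0.20 in NG3 on the log2 scale. After thinning, 14 of 28 NG2 cells and 5 of 29 NG3 cells had an Htr3a UMI, beside 814 of 1384 other nodose cells. Endothelial cells had one in 4 of 20. For NG2 the difference thus lay more in the mean, as single other nodose cells reached 71.5, than in the share of cells. Chrna3, a nicotinic subunit, was lower by 1.33 ± 0.16 and 1.4 ± 0.09, and F2r, the thrombin receptor, by 1.3 ± 0.54 and 1.65 ± 0.15.

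Few receptors for other chemical signals met the rule. Of 19 gut hormone and metabolic receptor genes in the table, 8 could be compared in NG2 and none met the rule, while in NG3 1 of 7, the cholecystokinin receptor gene Cckar, was lower (-1.56 ± 0.54). Genes lower by the rule were 0.640% of all those compared in NG3. Trpv1, the heat and capsaicin receptor, stood at 0.271, 0.112, 0 and 0 in NG2 and 0.0954, 0.0577, 0.0186 and 0 in NG3, against 0.986 to 1.37 elsewhere. It met the rule as lower in NG3 (-1.01 ± 0.14) and fell short in NG2 (-0.94 ± 0.23). The other 7 of 8 TRP channel genes compared did not meet it in either type.

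P2ry1, a metabotropic ADP receptor, was the purinergic gene that was higher in NG3 (1.63 ± 0.65). It stood at 6.75, 7.72, 1.46 and 1.61 in NG3, so that the unsorted libraries were high and the sorted ones low. In NG2 it stood at 1.14, 1.58, 0.366 and 0.515 and in the other nodose cells at 0.808, 0.810, 0.210 and 0.195. NG3 lay above both within every library.

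Neurotrophin receptors differed in kind. Ntrk3, the receptor for NT-3 found in proprioceptive and touch neurons, was higher in NG3 (1.54 ± 0.59, levels 2.11, 3.96, 1.22 and 3.87) and fell short in NG2 (0.92 ± 0.21, levels 1.60, 1.58, 1.04 and 1.19). The other nodose cells stood at 0.213 to 0.288, below every library of either type. That level is a mean over many types, and single cells among them reached 12.9. Ngfr, the p75 receptor, was lower in both, by 1.65 ± 0.51 and 1.47 ± 0.51 on the log2 scale.

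Ret, the GDNF family receptor, parted the types. It stood at 0.215, 0.445, 0.166 and 0.244 in NG2, the lowest of the nodose types, and at 4.20, 3.34, 4.11 and 6.04 in NG3, with the other nodose cells at 2.23 to 2.85. Its co-receptor Gfra1 stood at 0, 0.0381, 0 and 0 in NG2 and at 0.954, 0.980, 1.33 and 1.55 in NG3. The difference between the types was -2.08 ± 0.38 for Ret and -1.12 ± 0.20 for Gfra1, and these were the 2 of 11 neurotrophic receptor genes that met the rule between them. Over all genes 0.924% met it as lower in NG2 than in NG3.

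Both types carried Slc17a6 near the level of other nodose cells (differences 0.27 ± 0.14 in NG2 and -0.19 ± 0.14 in NG3). NG2 also carried Slc17a7, the gene of VGLUT1, which proprioceptive neurons of the spinal ganglia express. Slc17a7 stood at 2.02, 1.58, 1.47 and 0.9 in NG2, at 0.124, 0.126, 0.131 and 0 in NG3 and at 0.0453 to 0.0855 elsewhere. NG1 (1.63 ± 0.49) and NG2 (1.49 ± 0.46) overlapped library by library, and the next nodose type, NG5, stood at 0.160.

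Of 16 neuropeptide genes compared, 0 were higher and 3 lower in NG2, and 1 was higher and 4 lower in NG3, with medians of -0.38 and -0.28. Among all genes 0.927% were higher and 0.842% lower in NG2, and 0.760% and 0.640% in NG3. Cartpt, Gal and Vip met the rule as lower in both types, by 1.95, 1.18 and 1.11 in NG2 and 2.03, 1.19 and 1.24 in NG3 on the log2 scale. Tac1, the substance P precursor, was the exception in NG3 at 3.93, 5.13, 8.53 and 8.15, a difference of 1.89 ± 0.18. In NG2 Tac1 stood at 2.76, 2.53, 0.0921 and 2.18, with sorted 1 low. Scg2, a secretogranin, was lower in NG3 by 2.07 ± 0.20 on the log2 scale, and stood 1.47 ± 0.41 higher in NG2 than in NG3.

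Transcription factor genes gave a mixed account. Of 54 listed, 35 could be compared in NG2, of which 2 were higher and 1 lower, and 33 in NG3, of which 4 were higher and 2 lower. For all genes the shares were 0.927% higher and 0.842% lower in NG2, and 0.760% and 0.640% in NG3. Nfia was higher in both (1.16 ± 0.20 and 1.19 ± 0.50) and Tbx3 lower in both (-1.02 ± 0.07 and -1.2 ± 0.07). Pou4f1, a POU-domain factor of somatosensory neurons, was higher in NG3 (1.43 ± 0.26), as were Zfhx3 (1.33 ± 0.09) and Satb1 (1.16 ± 0.15). Etv1, an ETS factor of proprioceptive neurons, was 1.76 ± 0.40 higher in NG2 than in NG3, at 4.37, 5.80, 10.4 and 6.15 against 1.09, 1.17, 1.32 and 1.15. The other nodose cells stood between, at 3.25, 4.75, 3.36 and 2.98. Against them Etv1 met the rule as lower in NG3 and did not meet it as higher in NG2.

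Other genes of proprioceptive neurons did not follow throughout. Runx3, a transcription factor that they need, was listed at 0 in every NG2 library and reached 0.0237 in 1 NG3 library, while NG1 and NG10 averaged 1.56 and 1.48. Pvalb, the calcium buffer parvalbumin, stood at 3.54, 0.251, 0.167 and 0.548 in NG2. That mean was set by a single cell of unsorted 1 at 13.5, and the median over NG2 cells was 0. No Pvalb UMI was found in the 29 NG3 cells, which allows a share of up to 10.3% of cells with a UMI (3 counts of 29). The 95% exact binomial limit is 11.9%. Esrrg, a nuclear receptor, stood at 1.04, 0.189, 1.80 and 0.879 in NG2 and no higher than 0.0578 in NG3. Neither Pvalb (0.81 ± 0.91) nor Esrrg (0.86 ± 0.49) met the rule in NG2 against the other nodose cells.

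Ion pumps, calcium buffers and release genes set the types further apart. Atp1b1, a sodium pump subunit, was 1.3 ± 0.33 higher in NG2 than in NG3, while Atp1b3 and the pump regulator Fxyd7 were 1.02 ± 0.21 and 1.39 ± 0.77 lower than in NG3 on the log2 scale. Fxyd2 and Fxyd6, regulators of the same pump, were lower than in other nodose cells in both types, by 2.49 and 2.40 in NG2 and 1.26 and 2.09 in NG3. Atp2b1, the plasma membrane calcium pump, was higher in NG3 (2.0 ± 0.11), at 13.5, 16, 13.5 and 13 against 2.45 to 3.04 elsewhere.

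Of 24 synaptic release genes compared between the types, 6 were higher in NG2 and 0 lower. Vamp1, Cplx1 and Syt2, release genes of fast synapses, were higher by 1.63 ± 0.09, 1.66 ± 0.18 and 1.11 ± 0.12. Of 22 energy metabolism genes compared, 8 were higher in NG2 and 0 lower, led by Ldhb (2.08 ± 0.33, lactate dehydrogenase B), Ckb (1.52 ± 0.57, creatine kinase) and Eno2 (1.47 ± 0.19, neuronal enolase). The median differences of these lists were 0.11 and 0.93, beside 0.02 over all genes. Between the types 1.19% of all genes compared were higher in NG2 and 0.924% lower. Mitochondrial share and cell depth also differed between the types, as given above, and their part in these values was not tested.

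Adhesion genes included the largest single excess of NG2 over NG3. Lypd1, a membrane-anchored modulator of nicotinic receptors, stood at 17.8, 17.4, 0.864 and 12 in NG2 and at 0.12, 0.0367, 0.0165 and 0.0289 in NG3. The difference of 3.19 ± 1.56 became 3.96 without sorted 1. Single NG2 cells ranged from 0 to 45.1 with a median of 4.89, so the means do not stand for a uniform level. In sorted 2 a cell at 35.5 stood far above the others, at 2.80 to 4.97. NG3 was the lowest nodose type and NG2 the fourth highest, after NG11 (30.9), NG10 (27.0) and NG1 (26.2). Nrp2, a semaphorin receptor, stood at 3.20, 3.71, 2.56 and 3.93 in NG2 and no higher than 0.0948 in NG3, a difference of 2.07 ± 0.22.

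Transcripts of satellite glia, the cells that wrap sensory somata, moved with NG2. Apoe stood at 36.5, 24.1, 39.6 and 2.87 in NG2, 2.93, 6.44, 0.267 and 0.430 in NG3 and 20.2, 18.5, 1.18 and 0.650 elsewhere, so that the sets overlapped. By the rule Apoe (1.66 ± 1.74) counted among the genes higher in NG2 and among those lower in NG3 (-1.2 ± 0.95). The summed level of the 8 glial markers ranged from 3.88 to 51.6 over the libraries in NG2, from 0.284 to 8.27 in NG3 and from 0.860 to 26.3 elsewhere, and every one of the 8 had UMIs in each set.

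**Figure D4:**
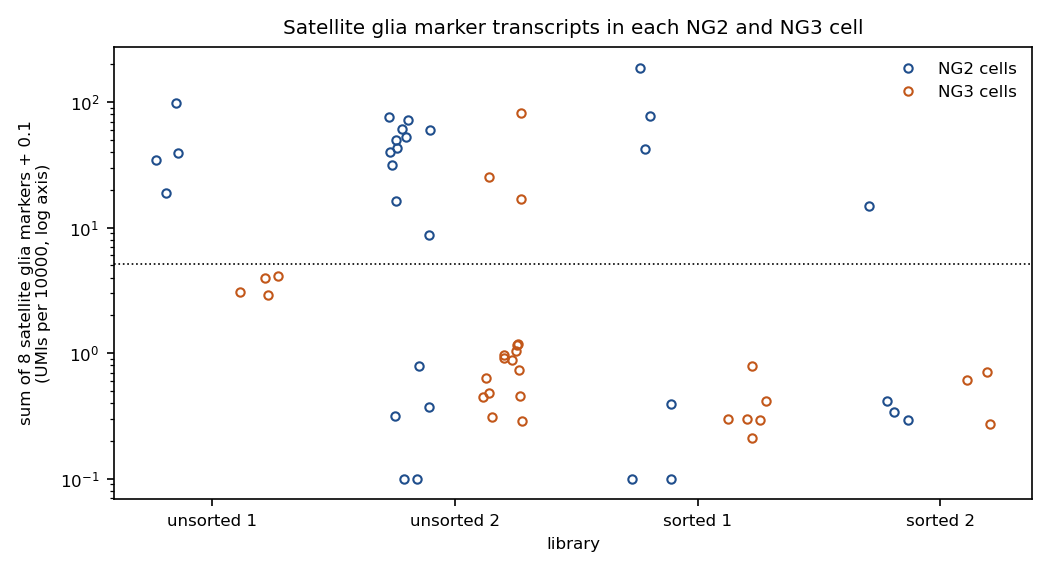
Sum of 8 satellite glia markers plus 0.1, in UMIs per 10000 on a log axis, for each NG2 and NG3 cell by library; the dotted line marks a sum of 5. NG2 cells fall into a low and a high set, with 19 of 30 above the line, against 3 of 29 NG3 cells.

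A sum above 5 was found in 19 of 30 NG2 cells (4 of 4, 11 of 16, 3 of 6 and 1 of 4 by library), 3 of 29 NG3 cells and 357 of 1400 other nodose cells. Without those cells on every side, which leaves NG2 no cell in unsorted 1, Apoe stood at -0.23 for NG2, 0.04 for NG3 and -0.27 for NG2 against NG3. Apoe is itself one of the 8 markers that chose those cells, so this follows from the choice. The counts of genes then stood at 97 higher and 79 lower for NG2, beside 87 and 79 with all cells. The part of glial RNA in the other NG2 values was not tested gene by gene.

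Endothelial and immune markers were near 0, whereas Schwann cell and jugular markers summed higher in NG3 than elsewhere, chiefly through Pmp22 and Tac1. The 6 endothelial markers summed to at most 0.142 in NG2 and 0.256 in NG3, with Cdh5 at 0 in both, and the 2 immune markers matched of 5 listed, Lyz2 and Csf1r, had no UMI in either type. The 5 sympathetic markers summed to 0.501 to 0.646 in NG2, 0.351 to 1.42 in NG3 and 0.778 to 1.3 elsewhere. The 6 markers of myelinating Schwann cells summed to 1.98 to 4.10 in NG2, 5.59 to 9.53 in NG3 and 3.52 to 4.13 elsewhere. Of these Pmp22 was 1.45 ± 0.44 lower in NG2 than in NG3 on the log2 scale, at 1.73, 1.76, 1.48 and 2.17 against 5.40, 6.29, 9.51 and 5.79. Of the 3 Schwann cell markers compared in NG3, 1 lay above the other nodose cells, with a median difference of -0.20. The 6 jugular markers summed to 4.23 to 8.98 in NG3 and 0.973 to 3.36 elsewhere, with Tac1 the one that met the rule and Mrgprd at 0. In NG2 they summed to 0.874 to 3.69. Of the 3 jugular markers compared in NG3, 2 lay above the other nodose cells, with a median difference of 0.15.

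Sorted and unsorted libraries could be tested, since these groups come from the labels and not from the clusters. With the 59 cells averaged per library, 23 of 8825 genes (0.261%) were called at an adjusted p under 0.05 and a log2 difference of at least 1 (limma with a mean-variance trend, Benjamini-Hochberg adjustment, 2 libraries against 2), of which 4 were higher and 19 lower in the sorted libraries. At an unadjusted p under 0.05 there were 918. An exact permutation test of 2 against 2 libraries cannot go below 0.33, so the calls rest on limma's sharing of variance between genes.

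None of the 5 markers was called. Their sorted minus unsorted differences were -0.42 for Nefh, -0.26 for Kcna2, 0.67 for Kcnk1, -0.12 for Tmem233 and 0.20 for Piezo2, with standard errors of 0.20 to 0.25. The lowest of their adjusted p values (limma) was 0.158, for Kcnk1.

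P2ry1 and Dcdc2a fell in the sorted libraries. P2ry1 stood at 3.95 and 4.65 in the unsorted and 0.913 and 0.983 in the sorted libraries over both types, a log2 difference of -1.44 (SE 0.17, limma adjusted p = 1.02e-04). Dcdc2a, a doublecortin-domain gene of microtubules and cilia, stood at 3.08 and 4.15 and at 0.366 and 0.455 (-1.70, SE 0.17, limma adjusted p = 7.08e-06). Nearly all Dcdc2a transcripts of the 2 types were in NG3, at 6.13, 8.22, 0.634 and 1.03, while NG2 stayed at or below 0.0979.

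Pfn1 (profilin), Calm3 (a calmodulin gene) and Cd9 (a tetraspanin) rose, with limma adjusted p values of 7.08e-06, 5.13e-05 and 5.18e-04. Pfn1 went from 0.278 and 0.132 to 4.53 and 2.61 (1.89, SE 0.18) and Calm3 from 2.40 and 2.69 to 12.5 and 11 (1.84, SE 0.21). Cd9 rose by 1.54 (SE 0.21) over both types, again through NG3, which stood at 2.60, 3.25, 15.4 and 11.8 against 0.162, 0.330, 0.776 and 0.255 in NG2. Tecr, a fatty acid elongation enzyme, rose by 1.11 (SE 0.21). It was not called without unsorted 2 (0.98, limma adjusted p = 0.23).

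Ribosomal protein genes made up 12 of the 19 genes called lower, among them Rps28 (-1.41), Rps27 (-1.41) and Rps29 (-1.39). Over all 91 compared, 85 were below 0 with a median of -0.56, beside -0.01 over all genes. Rps29 was not called without unsorted 2 (-1.19, limma adjusted p = 0.092). The lower side also held Vps8, an endosomal tethering gene, at -2.0 (SE 0.31, limma adjusted p = 0.0019), where the unsorted libraries themselves stood far apart at 2.65 and 10.5.

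**Figure D5:**
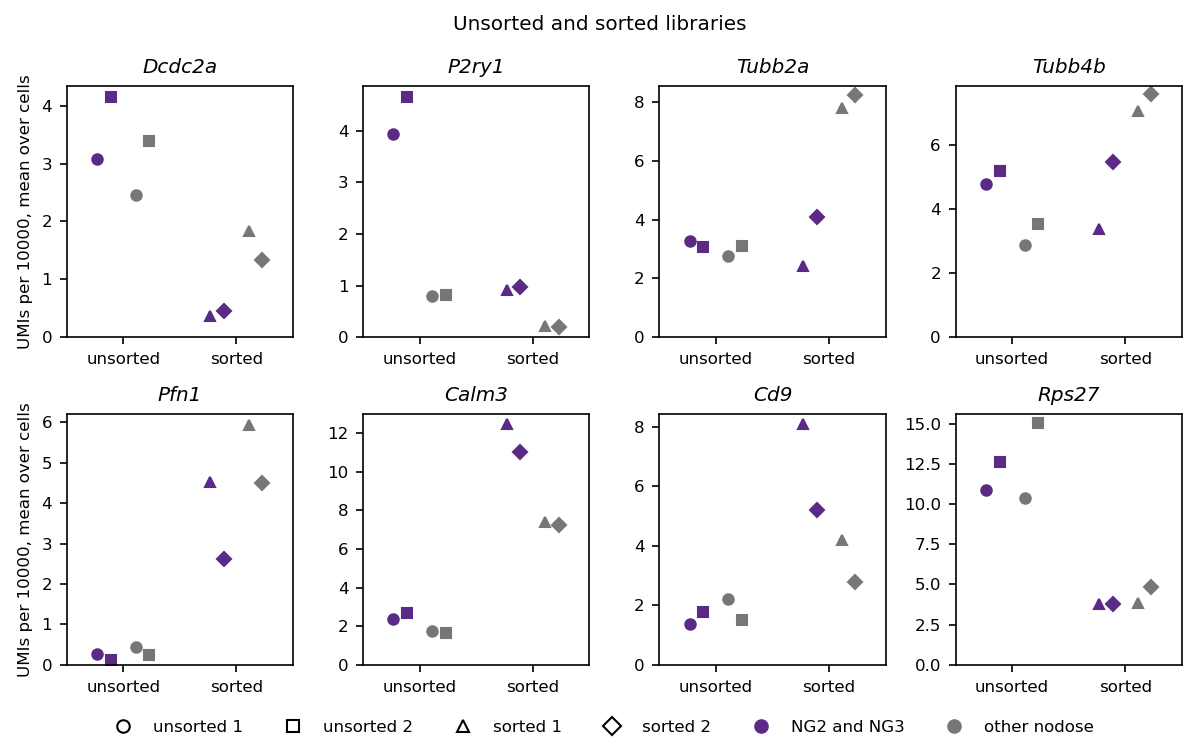
Mean level in UMIs per 10000 (vertical axes, linear from 0) of 8 genes in the unsorted and sorted libraries, for NG2 and NG3 cells together and for the other nodose cells; each symbol is 1 library. Pfn1, Calm3 and Rps27 shift in both sets of cells, whereas Tubb2a and Tubb4b rise with the sort in the other nodose cells and not in NG2 and NG3.

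Few genes shifted differently in other nodose neurons by the test of the difference. That difference between the 2 shifts was tested in 1 limma model with the library as a block, in which 0 genes were called with a higher and 3 with a lower shift in NG2 and NG3 (0.034% of 8825, 672 at an unadjusted p under 0.05). The median interaction of the ribosomal genes was -0.003. Tubb2a and Tubb4b, both beta-tubulin genes, stood at 2.75 and 3.11 and at 2.89 and 3.53 in other nodose cells of the unsorted libraries, and at 7.79 and 8.25 and at 7.06 and 7.61 in those of the sorted libraries. In NG2 and NG3 Tubb2a went from 3.28 and 3.06 to 2.43 and 4.07 and Tubb4b from 4.77 and 5.20 to 3.39 and 5.46, overlapping between the groups.

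The interactions were -1.2 (SE 0.19) for Tubb2a and -1.15 (SE 0.19) for Tubb4b, each with a limma adjusted p of 0.031. Dcdc2a was the third gene, at -1.1 (SE 0.16, limma adjusted p = 0.031), since it was lower in the sorted libraries in all nodose cells but more so here. P2ry1 had an adjusted p of 0.031 (limma) at a difference of -0.85, below the size asked for. Without the 5% of cells with the highest UMI totals none of the 3 was called, and Dcdc2a stood at -0.34. Without sorted 1 the 3 interactions were -0.95, -0.92 and -0.91, short of that size, and without unsorted 1 the adjusted p of Tubb2a and Tubb4b no longer passed. The make-up of the other nodose cells also differs between libraries, and its part was not tested.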

How the data were processed

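Single-cell transcripts were counted on the 10x 3' version 2 platform, per the labels' protocols. The mm10 build, Seurat and Cell Ranger 2.1.1 are listed per the submitters' processing notes, with no role stated. The authors deposited 1 table of natural log values, ln(1 + UMIs per 10000 UMIs of the cell), for 1825 cells, and an annotation holding each cell's cluster, UMI count and mitochondrial fraction. The series text states 1896 cells. Whole UMI counts were recovered from the deposited natural log values, with the smallest nonzero value of each cell taken as 1 UMI. By this 100% of values came out whole within 0.01. Recovered totals per cell were a median of 5 and at most 104 UMIs below the annotated counts. UMI totals were 16150792, 30781146, 17890514 and 17364911 for the libraries in the order used in the text.

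Cluster membership came from the deposited annotation. All annotated cells were kept, and doublets were not searched for. Levels were averaged over cells of a type within a library, and genes had to reach 0.1 UMIs per 10000 on average in either set. Levels of different genes are not compared, since capture at the 3' end differs between them. Clusters were drawn by the authors from these transcripts, so contrasts between types carry no p-value. Sorted against unsorted libraries was fitted with limma 3.58.1 (R 4.3.3) on log2(level + 1), with a mean-variance trend and Benjamini-Hochberg adjustment over all genes. The interaction was fitted over 8 profiles with the library as a block. The fits were tested on simulated data first. Python 3.11.15 with numpy 2.4.6, scipy 1.17.1 and pandas 2.3.3 did the rest.

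The members and the 34 gene lists, of 643 genes, were chosen with earlier results of these data known. Named genes were the 5 markers, the 8 largest differences in each direction of each comparison that met the size rule, up to 4 genes of each list, and the 6 largest in each direction for the sorted libraries. From these the text takes those whose role is known, and genes that stand outside the rule (such as Runx3 and Prdm12) were chosen after their values were seen. Of the listed symbols, 25 were not matched and were not analysed here, except that 1 of them, Drgx, is a synonym of Prrxl1, which was matched; Trarg1 was matched to Tusc5 by a RefSeq synonym. Alternatives changed the pseudocount, the filter on low genes, the model, the weighting of types and the cells or libraries included. A few listed genes are not reported here by name.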

Additional observations from a re-analysis of the deposited data

Results flagged for a closer look

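The shift between sorted and unsorted libraries differed between NG2 and NG3 cells and the other nodose cells for 3 genes, by the limma interaction term. For Dcdc2a the interaction was -1.10 on the log2 scale, for Tubb2a -1.20 and for Tubb4b -1.15, each with an adjusted p of 0.031 (limma). Dcdc2a was lower in both sorted libraries in either set of cells. For the 2 tubulin genes every sorted library was higher than every unsorted one in the other nodose cells, while the groups overlapped in NG2 and NG3. None of the 3 genes was called without the 5% of cells with the highest UMI totals, or with no filter on low genes.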

How the results depend on the processing

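No NG2 or NG3 library profile held more than 16 cells and the smallest held 3, and each sorting group had 2 libraries, so low genes are the least certain. Counts of genes between types stayed within 1.5 times of the values given under every setting but a pseudocount of 0.1. With that they were 332 higher and 303 lower for both types together, 456 and 557 for NG2, 330 and 495 for NG3, and 677 and 500 for NG2 against NG3. Without cells high in glial markers, Apoe turned to -0.23 in NG2, 0.043 in NG3 and -0.27 between them, and Fabp7 to -0.037 between them. Both are among the markers that chose those cells. Of 3254 values over 224 results for single genes, 2928 kept their direction and call, 279 moved by more than the spread, 43 were no longer called and 4 turned.

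The difference in UMIs per cell turned to -0.0029 without the 5% of cells with the highest UMI totals. The calls between sorted and unsorted libraries, 4 higher and 19 lower, were 24 and 53 with a pseudocount of 0.1, 2 and 2 with no filter (14632 genes tested), 21 and 26 with limma-voom, and 3 and 8 from summed UMIs. Without the 5% of cells with the highest UMI totals they were 8 and 26, in NG3 alone 1 and 5, in NG2 alone 4 and 17, and without cells high in glial markers 8 and 4. Leaving out a library gave 6 to 21 higher and 15 to 32 lower, the most without sorted 1. Besides Tecr and Rps29, given in the report, Cd9 was not called with limma-voom (0.98) or from summed UMIs (0.74), and Vps8 was not called with no filter, limma-voom or summed UMIs.

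Genes with a different shift in NG2 and NG3, 0 higher and 3 lower, were 3 and 3 with a pseudocount of 0.1, 0 and 0 with no filter, 20 and 8 with limma-voom, 2 and 2 from summed UMIs, and 0 and 0 without the 5% of cells with the highest UMI totals. Leaving out a library gave 3 to 14 higher and 0 to 9 lower, the most without sorted 2. No cause of these shifts was tested. No paired analysis of sorted and unsorted libraries was possible, because the replicate numbers only name libraries and the labels give no pairing between them. Cells of the types within a library were compared within it throughout.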
